A study of Rattus norvegicus with 16 samples.

Results

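Binding of the transcription factor SRF (serum response factor) was mapped by chromatin immunoprecipitation and sequencing (ChIP-seq) in 4 libraries from oligodendrocyte precursor cells (OPC), the dividing cells that give rise to the myelinating oligodendrocytes of the brain. Each library's peaks, called by the authors against the input of the same preparation, were joined across the libraries wherever they shared at least 1 bp, which gave 788 sites. A site was kept as reproducible when at least 2 of the 4 libraries called it and the IgG library of OPC did not, and 405 sites met this. Of these, 204 were called in 4 libraries, 107 in 3 and 94 in 2. A further 362 sites were called in 1 library, and 21 sites overlapped an IgG peak.

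The cells were wild-type (WT) primary rat OPC from brain, purified by immunopanning, expanded for 6 days and taken in proliferation medium without a switch to differentiation. The 4 replicates were independent preparations. The control was 1 library made with a non-specific IgG antibody from OPC, so its values have no replicate. The series holds 16 libraries in all, and the oligodendrocyte libraries enter no comparison here. The libraries are of bulk cultures, so binding in few cells and weak binding in many cannot be told apart. The assay reads binding and not expression, so the labelled cell type could not be checked against its marker genes.

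SRF binds DNA as a dimer at the CArG box, a short AT-rich element flanked by C and G. There it is joined by cofactors of the ternary complex factor family, which respond to growth factor signalling through ERK, and of the MRTF family, which sense the pool of monomeric actin. Its classical targets are immediate early genes such as Egr1 and Fos, genes of the actin cytoskeleton, and Srf itself.

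A pair of sequence elements recurred in the promoters of the sites, in different genes apart from Capn15, which held both. Promoters with each are shown here because the results turn on them. The sequences are RefSeq promoters of the assembly GRCr8, each written 5′ to 3′ on the strand of its gene, and all printed bases lie upstream of the transcription start site (TSS). The first set belongs to genes of the immediate early, actin and SRF lists, and the capitals mark matches to the CArG box.
Egr1, chr18:26736944-26737033, plus strand: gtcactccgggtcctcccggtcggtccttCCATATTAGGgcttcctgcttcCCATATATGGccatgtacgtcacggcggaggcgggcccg
Dusp5, chr1:262543657-262543746, plus strand: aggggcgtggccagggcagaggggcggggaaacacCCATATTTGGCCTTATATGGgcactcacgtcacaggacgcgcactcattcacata
Srf, chr9:21923965-21924054, plus strand: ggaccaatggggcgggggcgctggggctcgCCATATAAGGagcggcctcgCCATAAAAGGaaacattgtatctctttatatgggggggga
Cnn2, chr7:10370334-10370423, minus strand: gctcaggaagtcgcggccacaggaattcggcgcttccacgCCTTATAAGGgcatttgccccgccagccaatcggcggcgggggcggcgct
Actg1, chr10:106120992-106121081, minus strand: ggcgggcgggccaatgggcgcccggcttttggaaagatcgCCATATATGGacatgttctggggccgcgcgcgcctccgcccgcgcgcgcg
The second set is from promoters at the head of the ranking (Prcc, Dffa and Eif2b4) and from sites called in 3 or 2 libraries (Tmem160, Rab29 and Ufsp2). The capitals mark the 12 letters ACTACANNTCCC, or GGGANNTGTAGT where the match lies on the other strand. In human cells this element is known as a sequence bound by ZNF143 (Staf) and THAP11.
Prcc, chr2:175649665-175649754, minus strand: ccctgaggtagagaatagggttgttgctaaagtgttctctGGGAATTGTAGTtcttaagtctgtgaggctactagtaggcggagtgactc
Dffa, chr5:164823658-164823747, plus strand: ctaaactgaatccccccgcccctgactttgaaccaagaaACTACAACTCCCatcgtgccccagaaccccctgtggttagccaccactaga
Eif2b4, chr6:30902995-30903084, plus strand: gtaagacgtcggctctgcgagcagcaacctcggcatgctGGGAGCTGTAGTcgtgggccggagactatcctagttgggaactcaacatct
Tmem160, chr1:86292472-86292561, plus strand: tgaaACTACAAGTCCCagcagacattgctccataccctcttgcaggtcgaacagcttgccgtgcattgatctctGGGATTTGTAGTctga
Rab29, chr13:45859856-45859945, plus strand: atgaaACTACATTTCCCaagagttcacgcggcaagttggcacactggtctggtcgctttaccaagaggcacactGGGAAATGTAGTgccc
Ufsp2, chr16:53023605-53023694, minus strand: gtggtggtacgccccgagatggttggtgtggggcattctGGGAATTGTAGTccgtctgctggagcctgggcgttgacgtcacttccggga
The peaks are in the build Rnor_6.0 and the sequences in GRCr8, so promoters were tied to sites through gene names, and whether the printed letters lie under a peak could not be read by coordinates. By distance from the TSS in each build, the printed box of Actg1 lies outside its site. The box starts 90 bases upstream and the site is centred 2299 bp upstream.

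The sites with the best mean rank lay at the promoters of Banp, Prcc and Dffa, none of which is in the immediate early, actin or SRF lists. Ranks were taken within each library by the authors' fold enrichment, which is the pileup at the summit over the local background of the input. At Banp, which encodes a DNA-binding protein of the nuclear matrix, the site spanned chromosome 19, 54766013 to 54766703 (promoter, centred 336 bp upstream of the TSS). Its fold enrichment was 27.8, 30.4, 44.0 and 61.0 in replicates 1 to 4, and its reads scaled to 1000000 tags (RPM) were 19.8, 10.6, 16.9 and 32.7 (SD 9.28, n = 4). Banp ranked 11, 2, 1 and 1 in the 4 libraries.

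Prcc, a nuclear protein gene known from fusions in renal cell carcinoma, had its site at chromosome 2, 187258071 to 187258571 (promoter, 169 bp upstream). Its fold enrichment was 41.1, 33.2, 25.9 and 59.2, and its RPM were 16.9, 10.1, 15.5 and 31.4 (mean 18.5 ± 9.09, SD, n = 4). It ranked first in replicates 1 and 2. Dffa, which encodes the inhibitor of the caspase-activated DNase, followed at chromosome 5, 165922656 to 165922997 (promoter, 62 bp upstream), with fold enrichment of 34.9, 26.5, 31.3 and 48.0. Its RPM were 10.5, 4.68, 10.2 and 17.3 (mean 10.7 ± 5.18, SD, n = 4). At all 3 of these sites replicate 4 had the highest RPM and replicate 2 the lowest.

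The rest of the first 12 sites mixed enzymes, RNA and translation factors and unnamed loci. Gsk3a, a glycogen synthase kinase, ranked 12, 7, 2 and 4 in the 4 libraries with a wide site of the promoter (chromosome 1, 82108053 to 82109106, 422 bp upstream). Ddx23, an RNA helicase of the spliceosome, had fold enrichment of 34.5, 24.1, 25.9 and 39.5 at its promoter (46 bp upstream). Eif2b4, a subunit of the exchange factor of translation initiation factor eIF2, had 32.1, 13.5, 28.5 and 43.2 (138 bp upstream). The site of Pank4, a pantothenate kinase family gene, lay in an intron 488 bp downstream of the TSS, and that of Pprc1, a PGC-1-related transcriptional coactivator, in an exon 106 bp downstream. Zscan22, a zinc finger gene, was the nearest gene to a site 6168 bp upstream of it, between genes. LOC100911959 and AC127013.1 completed the 12. Their mean ranks ran from 3.75 at Banp and Prcc to 21.8 at AC127013.1.

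Egr1 was the only gene of the immediate early list among these 12. This zinc finger transcription factor gene had its site at chromosome 18, 27656864 to 27657598 (promoter, 355 bp upstream), with fold enrichment of 26.5, 15.5, 23.1 and 55.4 and ranks of 15, 32, 21 and 3. Its RPM were 16.9, 9.65, 14.2 and 31.6 (mean 18.1 ± 9.49, SD, n = 4). Replicate 4 was again the highest and replicate 2 the lowest.

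**Figure D1:**
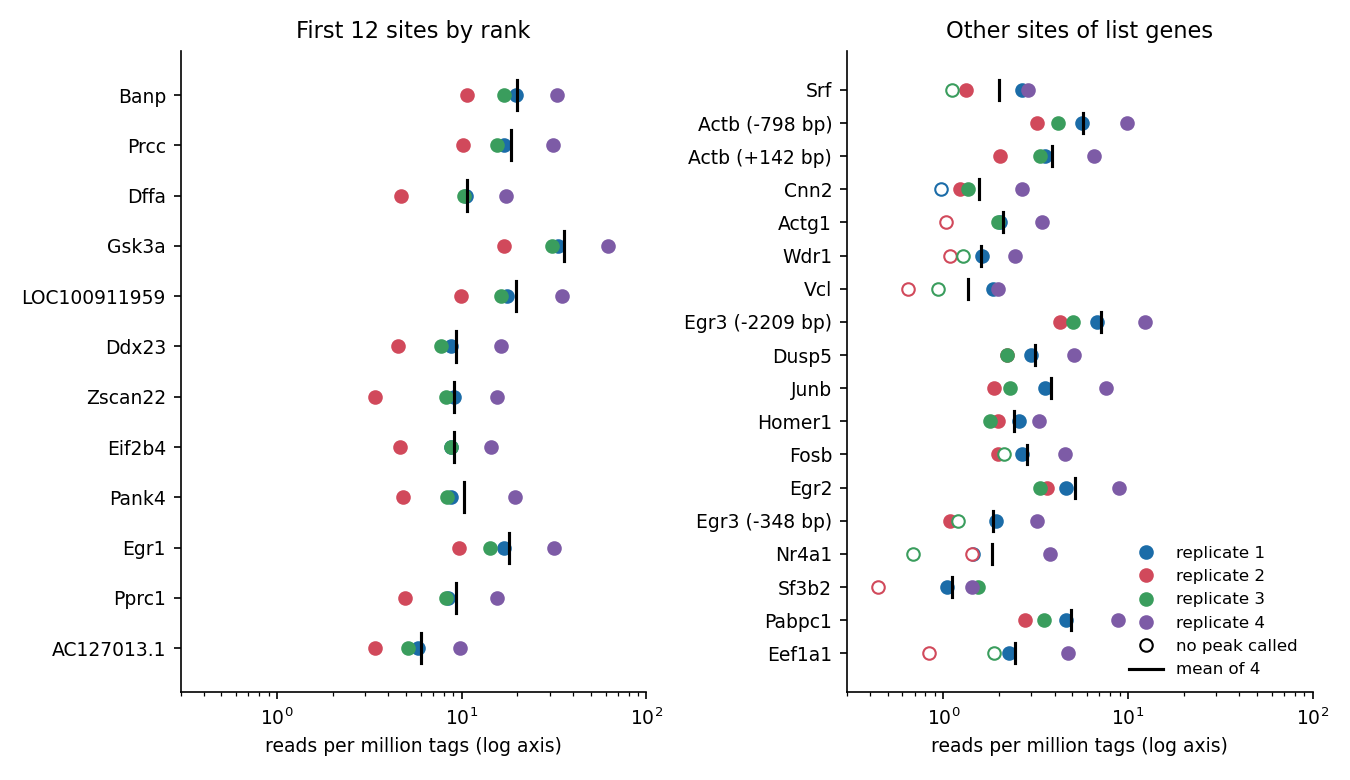
Reads scaled to 1000000 tags (RPM, log axis) in each of the 4 OPC libraries at the first 12 sites by mean rank (left, best rank on top) and at the other reproducible sites of list genes (right, grouped by list). Each point is a library, hollow where it called no peak, and the black bar is the mean of 4; reads are counted over whole regions of different width, so levels are to be read along a row and not between rows. Replicate 4 has the most reads in all 12 rows on the left, from 9.72 to 61.5.

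A larger share of the immediate early genes listed here had a site than of the genome's genes as a whole. Over all 47286 gene symbols of the reference table, 0.634% had a reproducible site within 10 kb of the TSS, and over its 23154 coding symbols 1.30% did. Here and below, a gene was counted only where it was the gene named nearest to the site, so other genes in reach were not counted. Of 60 genes of the list for immediate early and growth factor response, 8 (13.3%) had one. Besides Egr1 these were Egr2, Egr3, Fosb, Junb and Nr4a1, which encode transcription factors, Dusp5, a phosphatase that acts on ERK, and Homer1, a scaffold protein of synapses with an activity-induced short form. Fos, Fosl1 and Nr4a3 had a site in 1 library each. The share of all genes with a site in 1 library was not taken, so these add no evidence of an excess. The lists were chosen with earlier results of these data known, so the counts only describe them, and no test was made.

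Within this list the level of support differed. Egr3 had a site 2209 bp upstream (chromosome 15, 51754331 to 51754724) called in 4 libraries with fold enrichment of 20.3, 11.2, 14.1 and 38.1, and one in its promoter (348 bp upstream) called in 3. The Egr3 site farther out had 6.77, 4.29, 5.04 and 12.4 RPM in replicates 1 to 4, and the one in the promoter had 1.94, 1.08, 1.20 and 3.20. At Egr2 (chromosome 20, 22458751 to 22459278, 148 bp upstream) the fold enrichment was 8.86, 7.53, 7.12 and 16.3, and the RPM were 4.60, 3.65, 3.33 and 8.95. Egr2 had its lowest RPM in replicate 3, not in replicate 2.

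Dusp5 (68 bp upstream) had fold enrichment of 14.0, 11.2, 13 and 19.2, and Homer1 (1400 bp upstream) had 9.38, 11.2, 10.4 and 10.0. The Junb site lay 2078 bp downstream of the TSS at the transcript end, with 11.8, 8.73, 7.69 and 22.8. Fosb was called in replicates 1, 2 and 4 with 7.82, 9.19 and 13.3. The Nr4a1 site, 6434 bp downstream of the named start and annotated as a promoter, was called in replicates 1 and 4 alone, with 5.44 and 16.6. Of the 8 genes, 5 had a site within 1 kb, namely Egr1, Egr2, Egr3, Fosb and Dusp5, where 0.531% of all symbols and 1.08% of coding ones had a site that close.

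In the list for the actin cytoskeleton and cell adhesion, 5 of 107 genes (4.67%) were the gene named nearest to a reproducible site within 10 kb. They were the cytoplasmic actin genes Actb and Actg1, Wdr1, a cofactor of cofilin in filament disassembly, Cnn2, an actin-binding calponin, and Vcl, the adhesion protein vinculin. Actb had one site 798 bp upstream (chromosome 12, 13715611 to 13715981) with fold enrichment of 13, 11.8, 14.7 and 27.6, and another in an intron 142 bp downstream with 9.90, 4.83, 10.2 and 19.2. Both Actb sites were called in 4 libraries.

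The other actin genes had fewer calls. Actg1 (2299 bp upstream) was called in replicates 1, 3 and 4 with 8.65, 6.78 and 9.01, and Cnn2 (123 bp upstream) in replicates 2, 3 and 4 with 7.46, 8.40 and 9.37. Wdr1 (118 bp upstream) and Vcl (271 bp upstream) were called in replicates 1 and 4 alone, Wdr1 with 5.30 and 11.5 and Vcl with 5.64 and 4.00. Without replicate 1, and likewise without replicate 4, the list had 3 genes with a site in place of 5. A further 7 actin genes, Arpc4, Capzb, Fermt2, Flna, Myl12a, Tpm4 and Vim, had a site in 1 library each. With no share over all genes for such sites, this count does not show an excess in the list.

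Among 15 genes for SRF and its cofactors, Srf itself was the one with a site, in its own promoter 94 bp upstream of the TSS (chromosome 9, 16737468 to 16737736). It was called in replicates 1, 2 and 4 with fold enrichment of 10.4, 6.92 and 11.2, and had 2.66, 1.33, 1.11 and 2.87 RPM (mean 1.99 ± 0.901, SD, n = 4). The translation list had 2 of 45 (4.44%), Pabpc1, a poly(A)-binding protein, in 4 libraries and Eef1a1, an elongation factor, in 2. The splicing list had 1 of 45 (2.22%), the splicing factor gene Sf3b2. No reproducible site within 10 kb had as its nearest gene one listed for OPC identity (0 of 41), for myelin and differentiation (0 of 50), for cell cycle and growth (0 of 45) or for other brain cell types (0 of 36). Over all coding symbols the share was 1.30%, so 0 in lists of this size is near the general share and shows no avoidance of these genes. Gal3st1, an enzyme of myelin sulfatide synthesis, had a site in 1 library.

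The element ACTACANNTCCC was present in 105 of 221 promoters with a site, and the CArG box in 10. A coding promoter is taken here as the 250 bases before and 50 after the TSS, and 221 promoters of genes with a reproducible site within 1 kb could be read (226 of 272 sites, 83.1%). With both strands searched, the share of ACTACANNTCCC was 47.5% (exact 95% interval 40.8 to 54.3%), and it was in 475 of all 19005 coding promoters (2.50%). The share of the CArG box was 4.52% (interval 2.19 to 8.16%), and 307 of the 19005 held it (1.62%). One promoter held both, and 107 (48.4%) held neither. The intervals cover counting error over promoters only.

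The element was found in these promoters. Of all words of 6 letters, 2 free letters and 4 letters, it was the one in the most promoters with a reproducible site centred in the window, 86 of 148, and the next, CTACAANNCCCA, was in 53. The form of word was set after common words had been looked at, so these shares only describe the promoters it was found in. Genes whose sites were called in 1 library alone were not used to find it, and 39 of their 128 promoters (30.5%, interval 22.7 to 39.2%) held it. The share was 39.1% for sites in 2 libraries (18 of 46), 40.0% in 3 (24 of 60) and 54.6% in 4 (65 of 119). In the other direction, 105 of the 475 promoters with the element (22.1%) had a reproducible site within 1 kb and 39 (8.21%) had a site in 1 library, and of the 307 promoters with a CArG box 10 (3.26%) had a reproducible site and 6 (1.95%) a site in 1 library. Over all 19005 coding promoters 1.16% had a reproducible site. A match is a description of letters and not a bound position. SRF sites here are sites of libraries made with the SRF antibody, and which protein accounts for those at promoters with ACTACANNTCCC was not tested.

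**Figure D2:**
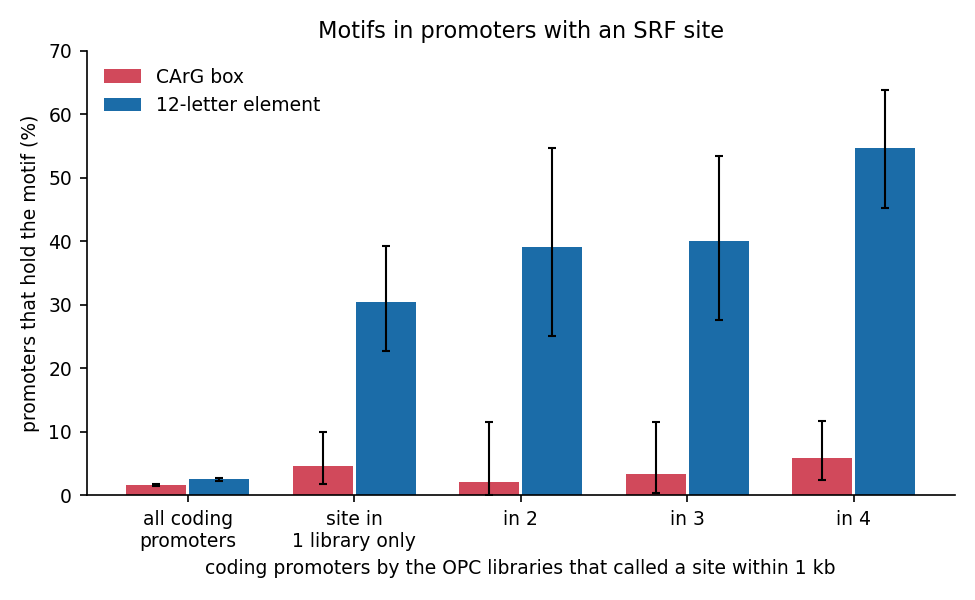
Percent of coding promoters that hold a CArG box (red) or the 12-letter element ACTACANNTCCC (blue), over all 19005 coding promoters and over promoters with a site within 1 kb called in 1, 2, 3 or 4 OPC libraries; error bars are exact 95% binomial intervals. The blue bars are 2.50% over all promoters and 30.5 to 54.6% where a site was called, and the red bars stay at or below 5.88%.

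Genes of the immediate early, actin and SRF lists were among those with a CArG box and a site. The 10 promoters with a CArG box and a site were those of Egr1, Egr2, Dusp5, Srf, Cnn2, Capn15, Fam53c, Gpr108, Ing2 and Irf3, so 5 of the 10 came from the immediate early, actin and SRF lists. Of the list genes with a site within 10 kb whose promoter could be read, 3 of 7 immediate early genes, 2 of 4 actin genes and Srf held a CArG box. Of them, 0 held ACTACANNTCCC. Actg1 is the list gene with a box whose site lay beyond 1 kb. The sites of Homer1 (1400 bp upstream), Junb (2078 bp downstream) and Nr4a1 (6434 bp downstream) also lay beyond 1 kb, and these promoters held no box. Of the readable list promoters with a site within 1 kb, those of Egr1, Egr2, Dusp5, Cnn2 and Srf held a box. Those of Fosb, Vcl and Wdr1 did not. Of the first 12 sites, 9 had a nearest gene whose promoter could be read, and 4 of these (Prcc, Dffa, Eif2b4 and Pprc1) held ACTACANNTCCC while 1 (Egr1) held a CArG box. Among the 9, Zscan22 has its site 6168 bp upstream, so its promoter was not at the site. Egr1 and Dusp5 carry CArG boxes in pairs, the first at 105 and 83 bases upstream of the TSS and the second at 82 and 72, and Srf has them at 81 and 61.

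Of the promoters with ACTACANNTCCC and a site, 79 held it once, 23 held it at 2 positions and 3 at more. Both Tmem160 and Rab29, shown above, have it at 2 positions in opposite orientations. Where the site was centred in the promoter window, 86 promoters held 112 matches, and the commonest forms among these were ACTACAACTCCC (29 matches), ACTACATTTCCC (27) and ACTACAATTCCC (15). Measured from the TSS in each build, the nearest match lay a median of 43 bp from the centre of the site, and within 100 bp for 80 of 108 sites (74.1%). The CArG box lay a median of 122 bp away (10 sites, 1 to 377 bp). Matches were sought only in the 300 bases of the promoter window, and the sites gather at the TSS too. Short distances are thus partly set by the search, and no comparison with other positions was made.

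With 1 mismatch allowed, the CArG box was in 19.5% of the 221 promoters and in 20.1% of all coding promoters, so the shares were close under that looser search. Promoters with a site were also somewhat richer in G and C, at 59.0% ± 7.86 (SD, n = 221 promoters) against 55.1% ± 11.8 over all coding promoters. A coding gene starting within 1 kb in the opposite direction was present at 34 of the 221 (15.4%, interval 10.9 to 20.8%) against 6.99% of all.

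The sites of the immediate early, actin and SRF list genes had another division of reads among the libraries than the sites as a whole. The reads of each site were scaled by TMM over the authors' consensus regions, which sets the libraries to a common level over the sites, and were divided by the site's mean over the 4 libraries. Over all 405 sites the median relative read count was 1.02, 0.976, 1.00 and 0.975 in replicates 1 to 4. At the 16 sites of the 3 lists it was 1.01, 1.27, 0.807 and 0.912. Replicate 2 was the highest library at 12 of these 16 sites (75.0%), against 116 of 405 (28.6%), and replicate 3 was the lowest at 11 of 16 (68.8%), against 96 of 405 (23.7%).

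Sites of promoters with ACTACANNTCCC did not share that division. Their medians were 1.02, 0.965, 1.02 and 0.997 (108 sites), and replicate 2 was the highest at 26 of 108 (24.1%). At the 10 sites of promoters with a CArG box, 5 of which are also list sites, the medians were 0.988, 1.20, 0.880 and 0.949. The ranges over sites overlapped, from 0.965 to 1.60 in replicate 2 for list sites and from 0.596 to 1.36 for promoters with ACTACANNTCCC. The pattern was noticed in these values, rests on 16 sites that share the same 4 preparations, and was not tested.

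**Figure D3:**
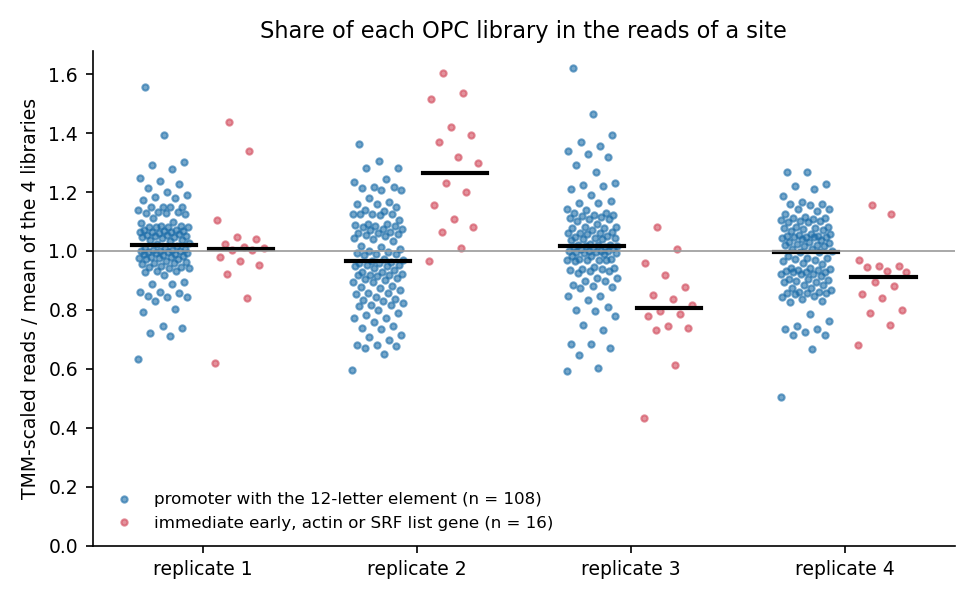
TMM-scaled reads of a site in each OPC library divided by the mean of the 4 libraries, for the 108 sites near promoters with the 12-letter element ACTACANNTCCC (blue) and the 16 sites of immediate early, actin and SRF list genes (red). Points are sites, black bars medians and the grey line a ratio of 1; the red medians are 1.27 in replicate 2 and 0.807 in replicate 3, and the blue medians lie between 0.965 and 1.02.

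The sites of the SRF libraries gathered at starts of genes. Of the 405 sites, 290 were centred within 1 kb of a TSS (71.6%, exact 95% interval 66.9 to 76.0%), against 3 of 117 peaks of the IgG library (2.56%, interval 0.532 to 7.31%). The share was 72.1% for sites in 4 libraries, 72.9% in 3 and 69.1% in 2, and it was 52.5% (interval 47.2 to 57.7%) for sites in 1 library. Of the 290, 222 (76.6%) were centred upstream of the TSS, and the median position was 79 bp upstream. By annotation 270 of the 405 were promoter sites, 71 fell between genes, 30 were intronic, 14 were exonic and 20 lay at transcript ends. The nearest gene was a coding gene for 371. The annotated class and the nearest gene can belong to different transcripts, as at Rangap1, whose site is called a promoter and lies 4106 bp upstream of the named start.

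A group of 42 sites lay more than 10 kb from the start of the gene named nearest, 5 of them annotated as promoters, and the best ranked of them were called in all 4 libraries. The first 5 were nearest to Foxl1, a forkhead factor gene, Fuk, the fucokinase gene, Zswim6, Pgc, which encodes a pepsinogen, and LOC100909688, with mean ranks from 25.0 to 36.0. The site nearest to Foxl1 (chromosome 19, 53100913 to 53101181) lay 45323 bp downstream and had fold enrichment of 23.6, 15.0, 20.8 and 47.5. The site nearest to Zswim6 (chromosome 2, 39145704 to 39146057) lay 142357 bp upstream and had 26.1, 26.5, 18.2 and 33.5, and it ranked 3 in replicate 2. At such distances the gene name marks a position and no target.

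Some sites lay nearest to genes of small nuclear or nucleolar RNAs. The nearest gene was an snRNA gene for 15 sites and a snoRNA gene for 5, with mean ranks from 205 to 563. These are 3.70% and 1.23% of the 405 sites, against 4.42% and 3.87% of sites in 1 library. Of 117 IgG peaks, 6 (5.13%) lay nearest to an snRNA gene and 0 to a snoRNA gene. The shares count the nearest gene at any distance. The 15 snRNA sites lay 297 to 9016 bp from the named start. Of the 117 IgG peaks, 109 lay more than 10 kb from the nearest start, against 42 of the 405 sites. The shares therefore do not compare closeness to snRNA genes. Of the 15, 12 lay nearest to U1 or U2 genes, and 2 of the 20 were called in 4 libraries, a U1 site on chromosome 2 (198632649 to 198633240) and a U5 site on chromosome 8 (70701296 to 70701581). The U1, U2 and U5 genes exist in near-identical copies, so which copy the reads came from is uncertain. Chromosome 1 held 82 of the 405 sites (20.2%) and 13.6% of the coding genes of the reference table.

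For 11 genes 2 separate sites were called near the same start. Besides Actb and Egr3 these were Cd3eap, Fem1a, Irf2bp1, LOC688176, Lmnb2, Ppp1r12c, Ppp2r5b, Thap11 and Zfp46. The Thap11 sites lay 356 bp upstream, called in 3 libraries, and 73 bp upstream, called in 2. Thap11 encodes the factor named above for its binding to the 12-letter element, and its own promoter window held 0 matches to that element. It is named for that reason, after its sites were seen.

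Calls in all 4 libraries were frequent at the top of the ranking and rarer below it. Among sites ranked 1 to 50 in a library, 97.8 to 100% were called in all 4, and for ranks 101 to 200 the share was 69.1 to 86.0%. Below rank 200 it was 20.2% in replicate 1, 27.7% in replicate 3 and 6.59% in replicate 4, and 86.7% in replicate 2, whose list ends at 232. Replicate 2 called 222 sites without an IgG peak, so no more than 222 could be in all 4. The low shares far down the longer lists are partly set by this. Without replicate 2, 296 sites were called in all libraries that remained, against 204 in all 4. For the 204 sites in all 4 libraries, Spearman's rho of fold enrichment between pairs of libraries was 0.61 to 0.79, across sites, which are not independent replicates.

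**Figure D4:**
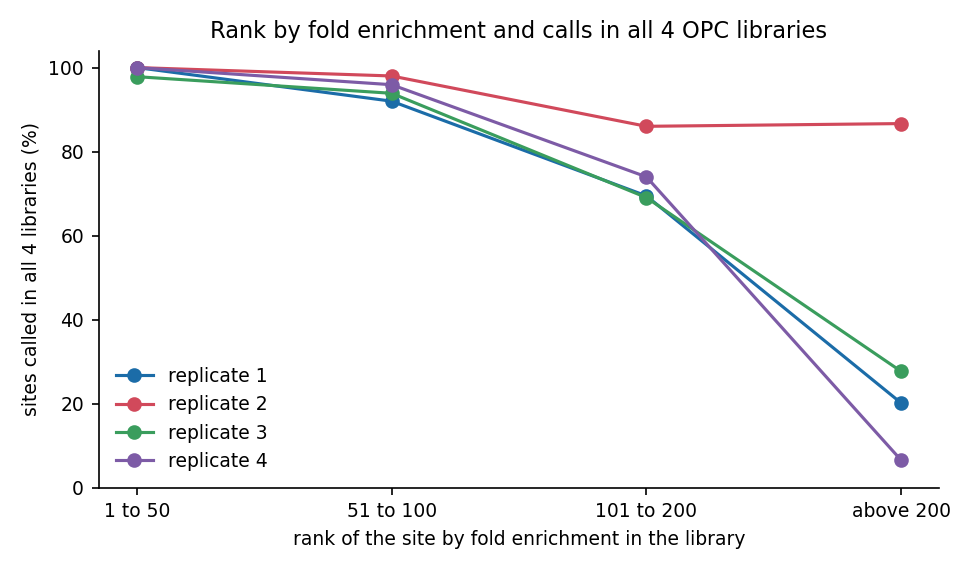
Percent of the sites of a library that were called in all 4 OPC libraries, by the site's rank by fold enrichment in that library (1 to 50, 51 to 100, 101 to 200, above 200); each line is a library. The lines start at 97.8 to 100% and, above rank 200, fall to between 6.59 and 27.7% in replicates 1, 3 and 4, while replicate 2, with 232 peaks, stays at 86.7%.

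The number of peaks did not follow depth. Replicates 1 to 4 held 12401853, 20303444, 11713315 and 9054483 tags and gave 432, 232, 383 and 714 peaks, and the IgG library held 11308414 tags and gave 117. The share of tags in the reproducible sites was 0.151%, 0.0763%, 0.134% and 0.278% in the same order (mean 0.160% ± 0.0850, SD, n = 4). The deepest library, replicate 2, thus had the fewest peaks and the lowest share, and the shallowest, replicate 4, the most. Of the 45 reproducible sites named here, 43 had the highest RPM in replicate 4, with Gpr107 and Sf3b2 as the exceptions, and 38 had the lowest in replicate 2. TMM scaling, with factors set over regions that include these sites, lowered the median coefficient of variation over these 45 sites from 52.6% to 17.3%.

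Replicate 2 called no site of its own, and all 222 of its sites without an IgG peak were also called in replicate 4. Of the 362 sites called once, 298 came from replicate 4, 36 from replicate 1 and 28 from replicate 3. At the 298, the median was 15 reads in replicate 4 and 8, 7 and 7 in replicates 1 to 3, or 1.66 RPM against 0.645, 0.345 and 0.598 RPM. These sites were chosen by a call in replicate 4 alone, so higher reads there are partly set by the choice. At the 36 sites of replicate 1 alone, the medians were likewise 13.5 reads there and 7, 6 and 7.5 in replicates 2 to 4.

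**Figure D5:**
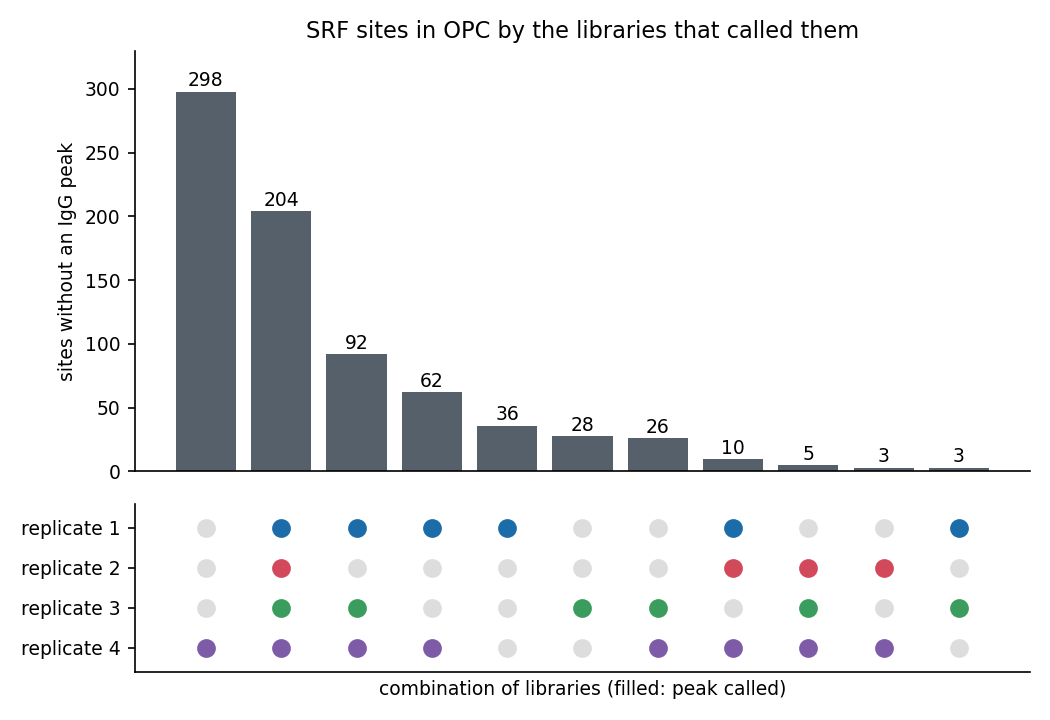
Number of sites without an IgG peak for each combination of the 4 OPC libraries that called them; coloured dots under a bar mark the libraries with a peak. The largest bars are replicate 4 alone (298 sites), all 4 libraries (204) and replicates 1, 3 and 4 (92).

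Several sites without a call in a library had reads there, as the sites on either side of the requirement of 2 libraries show. Of the sites in 3 libraries the best ranked were at Tbx6, R3hdm1, Tmem160, Rab7l1 (Rab29 in the reference table) and Rangap1, all missing in replicate 2. Tmem160 (60 bp upstream) had fold enrichment of 12.2, 11 and 17.3 in replicates 1, 3 and 4, and in replicate 2, without a peak, it had 18 reads or 0.887 RPM. Of the sites in 2 libraries the best ranked were at Gpr107, Ncoa3, Praf2, Mxi1 and Ufsp2. Ufsp2, a protease gene of the UFM1 pathway (74 bp upstream), had 10.2 and 12.4 in replicates 1 and 4, and 35, 33, 18 and 38 reads over the 4 libraries, so reads were present where no peak was called.

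The sites outside it with the highest fold enrichment in their one library were at Suv420h1, AABR07039139.1 and Ppp2r3a in replicate 3 (11.1 to 14.6), at Rtn2, Gtf2i and Pex14 in replicate 4 (13.7 to 19.8) and at Prkab2, Akirin2 and Tmem245 in replicate 1 (8.16 to 8.73). At Gtf2i, a gene for a general transcription factor, the promoter had 7, 8, 14 and 32 reads in replicates 1 to 4. The 3 sites of replicate 3 lay in introns or between genes, while 5 of the other 6 were in promoters.

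The 21 sites that overlapped an IgG peak stood apart from the 405. Only 1 lay within 1 kb of a TSS, at the 5S ribosomal RNA gene Rn5s, and 16 lay between genes. Of the 117 IgG peaks, 21 (17.9%) overlapped an SRF site. The one called in the most SRF libraries, nearest to Slc2a2 at 142025 bp, had fold enrichment of 13.3, 12.1, 29.8 and 28.8 in the SRF libraries and 13.2 in IgG, with 5.31 RPM in IgG against 5.00, 1.53, 6.15 and 5.74. The sites nearest to Cplx2 and AABR07026004.1 had 15.2 and 11 in IgG. One of the sites lay in an intron of Cspg4, the NG2 proteoglycan gene that marks OPC, 30387 bp from its TSS, with fold enrichment of 5.16, 22.1 and 9.11 in replicates 1, 3 and 4 and 7.47 in IgG, and it was therefore not counted. Removing IgG peaks took away 13 sites called in at least 2 libraries.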

How the data were processed

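The series compared SRF ChIP-seq in rat OPC and oligodendrocytes, and the 4 SRF libraries and the IgG library of OPC are used here. Per the file headers, MACS 2.2.7.1 was run by the authors on every library, with that library's input as control (for IgG, the input of replicate 1) and a q-value limit of 0.05. The deposited tables give for each peak a pileup signal, a fold enrichment ratio and a −log10 p and q, all of which are the authors' values used to rank or filter peaks within a library. The deposited counts are whole reads over the authors' consensus regions (featureCounts 2.0.1, per the file headers), which can be wider than a site, so reads are compared between libraries and not between sites. Trim Galore, BWA, HOMER and the build Rnor_6.0 are named in the submitters' processing notes, and coordinates are counted from 1. How duplicate reads and reads with several matches were treated before peak calling is not stated there. The estimated fragment length was 72 to 85 bp, close to the tag size of 72 or 73 bp.

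Here, peaks of the 4 libraries were joined at 1 bp, a site took name and position from its best ranked peak, and reads were scaled to 1000000 tags (RPM) or scaled by TMM (edgeR 4.0.16) or DESeq2 1.42.0, neither used for a test. No test was made, since there is 1 stage. Shares have exact binomial (Clopper-Pearson) 95% intervals (scipy 1.17.1), which cover counting error only, as reads without molecular identifiers are not independent molecules. The joining and the motif search were tested on simulated data. Of 341 gene names with a site within 10 kb, 300 (88.0%) matched the RefSeq table of GRCr8, used for names and promoter windows. The motifs were the CArG box (2 C, 6 letters that are A or T, 2 G) and ACTACANNTCCC, on both strands; 3 coding promoters hold both and in 0 do they overlap.

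The named sites are the 12 in 4 libraries with the best mean rank, the first 5 in 3 and in 2 libraries, all reproducible sites whose nearest gene is a list gene within 10 kb, the first 5 beyond 10 kb, the 3 sites with an IgG peak called in the most libraries, and the 3 highest of each library alone. Sites and lists were chosen with earlier results of these data known.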

Additional observations from a re-analysis of the deposited data

Results flagged for a closer look

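One value in RPM, which is not scaled between libraries by TMM, stood apart from the others of its group. At Ncoa3, a gene for a coactivator of nuclear receptors, replicate 4 had 2.54 RPM, against 0.806, 0.837 and 0.854 in replicates 1 to 3. Its gap to the next library was above Dixon's 95% critical value for 4 samples. Replicate 4 had the highest RPM at 43 of the 45 named reproducible sites. With TMM scaling, the reads at Ncoa3 relative to the mean of the 4 libraries were 0.69, 1.39, 0.80 and 1.125 in replicates 1 to 4. Replicate 2 and not replicate 4 was then the highest. The Ncoa3 site was called in replicates 2 and 4. It was 1 of 50 groups of 4 values looked at, and chance flags about 1 group in 20.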

How the results depend on the processing

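Of 95 values recomputed under another setting, 82 stayed within 1.5 times the reported count or within its interval or spread. With the same number of top peaks per library (232), the sites in at least 2 libraries numbered 240 and the actin genes with a site 2. The share within 1 kb of a TSS was 63.0% within 500 bp and 84.2% within 5 kb, and 5 immediate early genes had a site within 1 kb. The CArG box was in 19.5% of promoters with 1 mismatch allowed. In alternatives added after the data were seen, ACTACAANTCCC was in 28.5% of promoters (1.41% of all), and ACTACANNTCCC in 58.1% where the site was centred in the window. Leaving out each replicate in turn gave 317 to 402 sites in at least 2 libraries, 205 to 296 in all that remained, 71.5 to 72.7% within 1 kb, 7 or 8 immediate early genes, 3 to 5 actin genes, 4.52 to 5.14% with a CArG box, 47.1 to 50.3% with ACTACANNTCCC, a median rho of 0.61 to 0.78 between libraries and a relative read count of 1.16 to 1.28 in replicate 2 at list sites. TMM and DESeq2 scaling lowered the median coefficient of variation of named sites to 17.3% each, and all 90 site means moved by less than 1 SD. The scaling factors were set over regions that include these sites, and the SD is that of the unscaled RPM. Neither result is therefore a measure of robustness. The cause of the spread between libraries was not tested. No paired analysis was possible because 1 group of SRF libraries is described, its inputs entered only through the authors' peak calling, and no value comes from a test. Sites called in 1 or 2 libraries had median counts of 4 to 24 reads per library, which limits their precision.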
